A study of Mus musculus with 4 samples.

Results

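The cytosolic ribosomal protein genes code for the proteins that, with ribosomal RNA, build the ribosomes of the cytoplasm. They were taken as every protein-coding gene named with Rpl or Rps and a number, allowing a letter or an l for paralogs, together with Rplp0, Rplp1, Rplp2 and Rpsa. This gave 82 genes of the 33981 listed, 50 of the large (60S) subunit and 32 of the small (40S) subunit. All 82 are called members here. Rack1 and Rps27rt, which belong to or resemble ribosomal parts but have other names, are given beside them.

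The study asked what hypertension and stroke, alone and together, do to the brain. Poly(A) RNA was sequenced from a coronal slice of forebrain that took in the prefrontal cortex, in male C57BL/6J mice aged 3 to 5 months. NT + Sham mice received saline vehicle for 28 days and sham surgery on day 7, and NT + Stroke mice received vehicle and a photothrombotic stroke, in which light on a circulating dye closes cortical vessels. HT + Sham and HT + Stroke mice had the same surgeries while they were infused with 0.28 mg/kg/day of angiotensin II, a peptide that raises blood pressure. Tissue was collected on day 28, and each slice was measured as a whole, with all its cell types together.

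There were 24 libraries, 6 per group, with total counts of 15922919 to 24865998. The tables number them 1 to 6 within a group and GEO lists 1 sample per group. Each was treated as 1 mouse, which the labels do not state, so P values measure only the spread between these libraries, which may be technical. Neuronal markers were abundant in every library, with a summed level of 10712 to 14455 CPM (counts scaled to a common library total) over 13 genes. The olfactory bulb and striatal markers varied more, with summed CPM of 69.0 to 831 and 354 to 2766 over the 24 libraries.

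A ribosome needs 1 copy of nearly every ribosomal protein, and cells make the mRNAs of these genes at high and matched levels. Most of these mRNAs begin with a C followed by an unbroken run of pyrimidines, the terminal oligopyrimidine or TOP tract. Through this tract the mTOR kinase and the binding protein LARP1 control their translation, so mRNA levels such as those measured here need not follow the rate at which ribosomes are made. In the brain, neurons are rich in ribosomes.

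The first bases of a few members show this tract. RefSeq starts on GRCm38.p6 were at hand for 62 of the 82 members. A C followed by at least 4 pyrimidines began within 5 bases of an annotated start in 29 of these 62, against 21.2% of all 27025 gene symbols in the same table, and exactly at a start in 13 of 62, against 3.01% of all symbols. Of 69 mitochondrial ribosomal protein symbols, 17 had the tract within 5 bases of a start and 0 exactly at a start. Only the given strand was read, since the tract is a feature of the mRNA. Below are 10 bases before and 20 from the annotated start, written 5′ to 3′, with the tract in capitals. Rps6, Rps27, Rpl35a and Rplp2 are shown because the tract sits at the start itself, Rpl22l1 and Rps27l because they are paralogs described below, and Rplp0, Rps12 and Rpl22 because the results turn on them.
Rps6 (chr4:86857348-86857377, minus strand): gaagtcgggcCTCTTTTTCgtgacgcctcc
Rps27 (chr3:90213629-90213658, minus strand): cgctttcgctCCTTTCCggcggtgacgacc
Rpl35a (chr16:33056472-33056501, plus strand): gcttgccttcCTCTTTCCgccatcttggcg
Rplp2 (chr7:141447641-141447670, plus strand): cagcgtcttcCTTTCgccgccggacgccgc
Rpl22l1 (chr3:28805498-28805527, plus strand): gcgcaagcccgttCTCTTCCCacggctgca
Rps27l (chr9:66946076-66946105, plus strand): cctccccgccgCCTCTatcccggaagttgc
Rplp0 (chr5:115559457-115559486, plus strand): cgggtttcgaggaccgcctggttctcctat
Rps12 (chr10:23787190-23787219, minus strand): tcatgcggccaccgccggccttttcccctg
Rpl22 (chr4:152325716-152325745, plus strand): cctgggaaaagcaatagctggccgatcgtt
The windows of Rplp0, Rps12 and Rpl22 held no such run within 5 bases of the start used, which says only that these letters are not at that annotated position. Runs of this kind do begin further into the windows of Rplp0 and Rps12, beyond that tolerance, and were not marked.

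Levels were compared between genes as FPKM, which divides by gene length. That length ran from 383 to 6270 bases over the members, with a median of 1754.5. Annotated exons covered 383 bases in Rpl36, 499 in Rplp1, 630 in Rps15, 977 in Rps3a1 and 1168 in Rpl41, against 4483 in Rps3. The order below therefore also follows annotated length, which need not be that of the mRNA present. In NT + Sham the median member stood at 125 FPKM, and 52 of 82 members were above 100 FPKM. Rplp1, an acidic protein of the ribosomal stalk that recruits translation factors, was the highest at 1546 ± 289 FPKM (SD, n = 6). Next came Rps15, a protein of the small subunit head, at 739 ± 118 FPKM, followed by Rpl36 at 490 ± 86.0, Rpl41 at 465 ± 80.5 and Rps3a1 at 451 ± 48.6 FPKM. The last 3 lay within 1 SD of each other and their order is not resolved. Among other members of known role, Rps6, the substrate of the S6 kinases, stood at 209 ± 22.7 FPKM, Rplp0 at 180 ± 17.6, Rpsa, also known as the laminin receptor, at 148 ± 16.8, and Rps3 at 108 ± 15.1 FPKM. The median was 117 FPKM over the large and 149 FPKM over the small subunit.

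**Figure D1:**
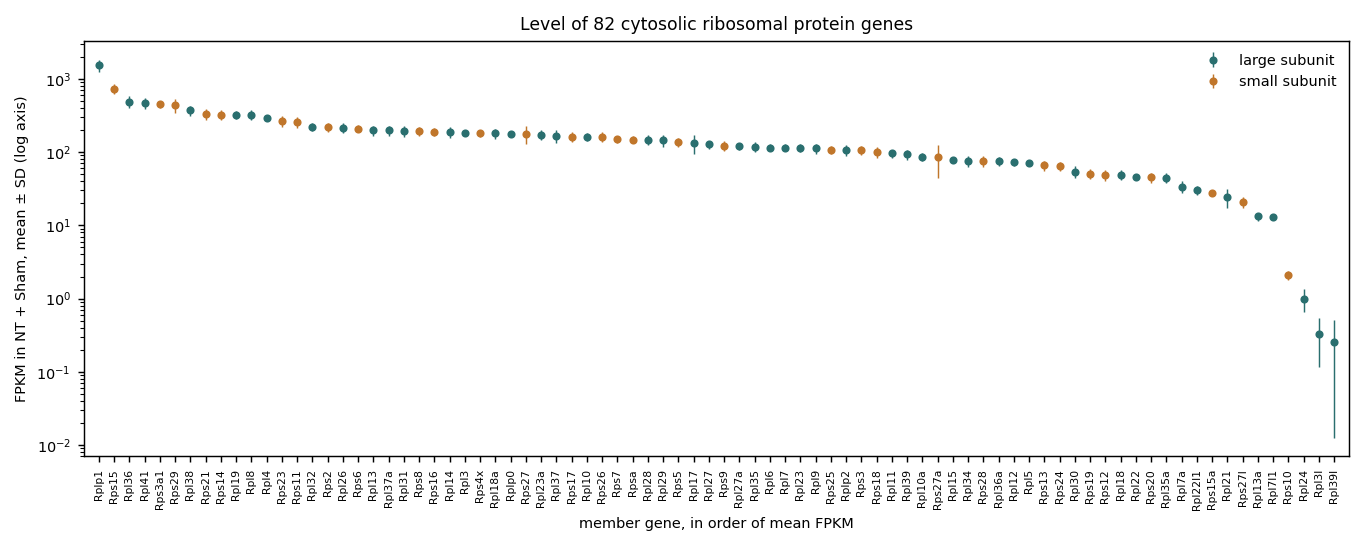
Mean FPKM ± SD over the 6 NT + Sham libraries (log axis) for each of the 82 members, in falling order, with large-subunit genes in teal and small-subunit genes in orange. Most members lie between 10 and 1000 FPKM, with Rplp1 highest at 1546 and Rpl39l lowest at 0.25.

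Only 4 members were below 10 FPKM. Rpl39l and Rpl3l, paralogs known chiefly from testis and from heart and skeletal muscle, stood at 0.25 ± 0.26 and 0.33 ± 0.21 FPKM. Rpl24 stood at 0.999 ± 0.34 FPKM and Rps10 at 2.08 ± 0.29 FPKM, although both are core ribosomal proteins. The fifth lowest was the paralog Rpl7l1, at 12.9 ± 0.82 FPKM. Of the exon bases of Rpl24, 47.0% are also exons of another gene on the same strand, Gm28037, and of those of Rps10, 20.6% are shared in this way, mostly with a read-through gene. Rpl13a, at 13.3 ± 1.67 FPKM, shares 35.4% with Gm45713. The counts of these 3 members are therefore uncertain. The exons of 6 members (Rpl35, Rpl23a, Rpl31, Rps25, Rpl5 and Rpl30) lie under a gene on the opposite strand over at least 20% of their bases, and the strand used in counting was not stated. There were also 215 listed ribosomal protein pseudogenes, 15 of them named after Rpl31 and 11 after Rpl21, and reads shared with such copies could be counted on either.

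Libraries of the same group differed in the members more than groups did. The members took 1.68% to 2.82% of all counts. Their summed level was 16920, 21286 and 24941 CPM (lowest, median and highest library) in NT + Sham, 17262, 21631 and 23867 in HT + Sham, 19072, 21855 and 24148 in NT + Stroke, and 18337, 23441 and 29489 in HT + Stroke. Every group overlapped every other. Means were 20991 ± 2902, 21113 ± 2585, 21717 ± 2066 and 23640 ± 3617 CPM. The widest difference between group means was below the SD within NT + Sham and HT + Stroke and above that within HT + Sham and NT + Stroke.

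**Figure D2:**
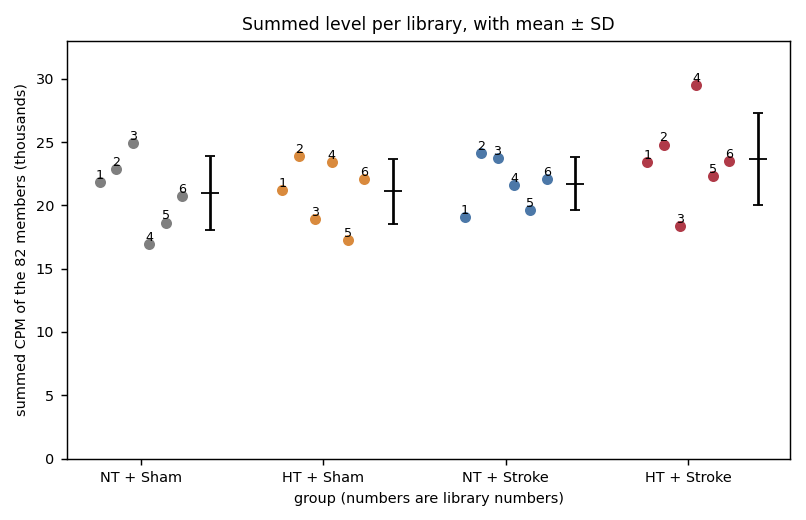
Summed CPM of the 82 members in each of the 24 libraries (points, with library numbers) by group, with the mean ± SD beside them. The groups overlap, with NT + Sham library 4 lowest at 16920 CPM and HT + Stroke library 4 highest at 29489 CPM.

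The members moved together between libraries. Of 78 members with a mean of at least 10 CPM, 73 had their lowest NT + Sham value in library 4 and 71 their highest in library 3. In HT + Sham 69 were lowest in library 5, and in NT + Stroke 57 were lowest in library 1. In HT + Stroke 71 were lowest in library 3 and 73 highest in library 4. A single axis held 71.0% of the variance of log2(CPM + 1) over these members and the 24 libraries, and the 4 groups accounted for a median of 13.8% of a member's variance. The median SD within groups was 0.21 on the log2 scale for the members, against 0.14 for 9888 other protein-coding genes at that level.

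The same libraries stood out in other genes, among them a set chosen by length. That set was not matched to the members, whose median gene length was 1754.5 bases. Only the members were left out of it, so it can hold other ribosomal genes, and Rps27rt was in it. In 163 other protein-coding genes shorter than 1000 bases and at a mean of at least 10 CPM, the library with the lowest median deviation from the 24-library mean was that of the members in all 4 groups, and the library with the highest was that of the members in NT + Sham and HT + Stroke. The median deviation of the short genes was -0.26 in NT + Sham library 4, where that of the members was -0.36, and 0.37 in HT + Stroke library 4, where that of the members was 0.47. In HT + Stroke library 3 the values were -0.36 and -0.24. The 77 mitochondrial ribosomal protein genes, whose products make the separate ribosome of the mitochondrion, had a narrower range, from -0.29 in HT + Stroke library 3 to 0.19 in library 4 of that group. The part of the libraries in the results below was examined by leaving each out and, after these values had been seen, with a covariate.

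**Figure D3:**
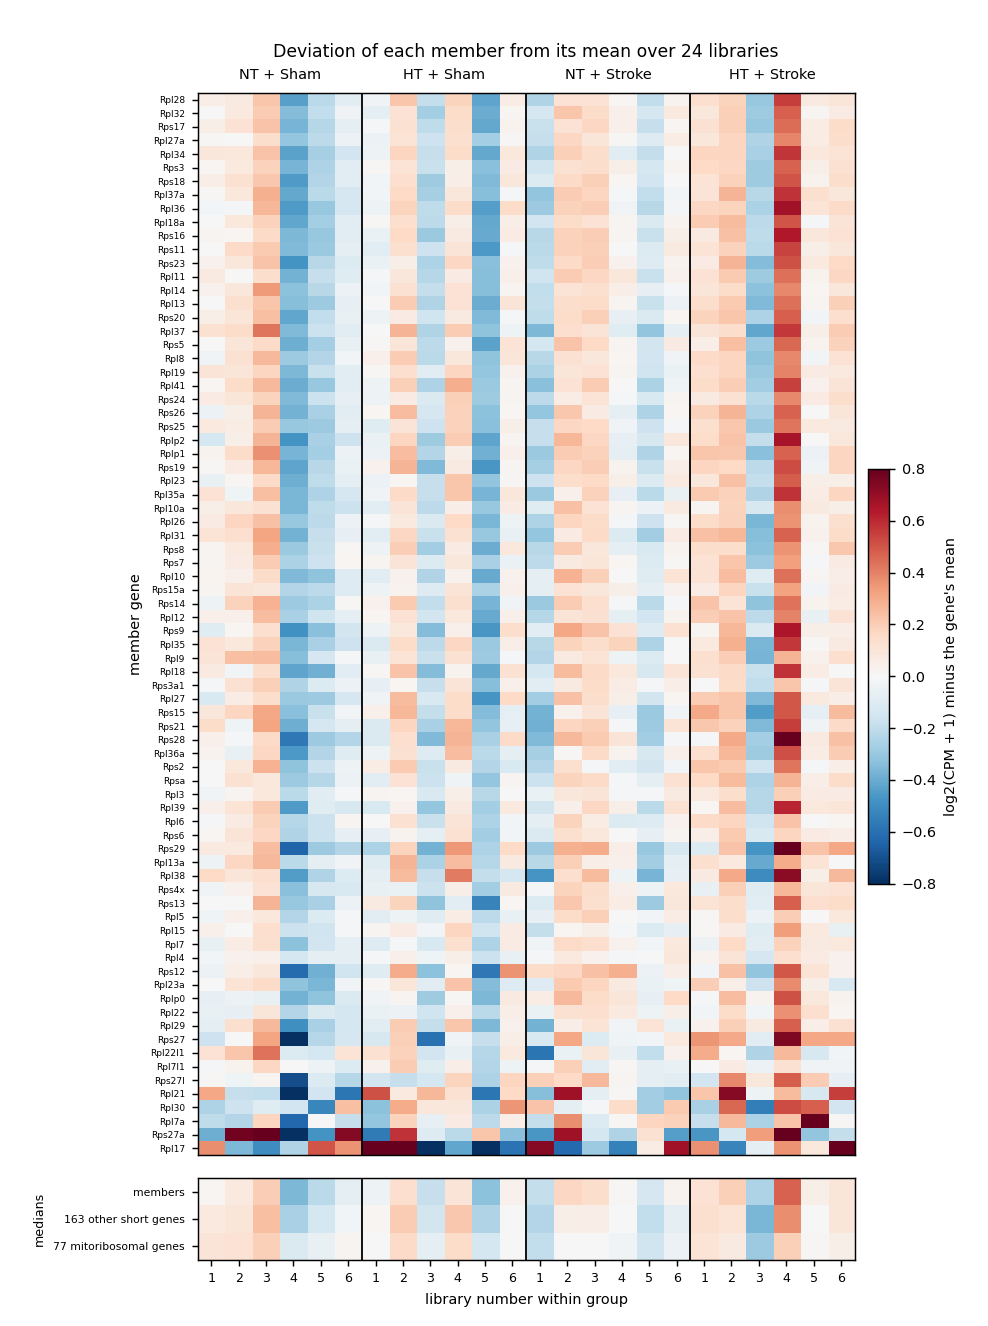
Deviation of log2(CPM + 1) from the gene's mean over 24 libraries for 78 members (rows, with members that move most like the others at the top) and, in the lower rows, the median deviation of the members, of 163 other short genes and of 77 mitochondrial ribosomal protein genes. Nearly whole columns share a colour, blue in NT + Sham library 4 and red in HT + Stroke library 4.

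A few members did not follow the rest. Within groups, 70 of the 78 correlated above 0.8 with the mean of the other members across the 24 libraries, which share scaling and depth, and 5 were below 0.6: Rpl17, Rps27a, Rpl7a, Rpl30 and Rpl21. These were named after their values had been seen. Rps27a, made as a fusion of ubiquitin and a ribosomal protein, ranged from 78.9 to 246 CPM in NT + Sham and from 102 to 300.2 CPM in HT + Stroke. Rpl17 ranged from 45.5 to 188 CPM in HT + Sham and from 64.0 to 164 in NT + Stroke. Neither gene separated any pair of groups.

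Stroke in normotensive mice was followed by small differences in the members, most of them upwards. In NT + Stroke vs NT + Sham, edgeR's quasi-likelihood test called 2 of 80 members tested at an adjusted P under 0.05, both higher, where it called 25.9% of all 16835 genes tested and 14.4% as higher. The share of members called was below the background. No member separated the groups, where 13.5% of all genes did and 7.78% with NT + Stroke higher. The members' median log2 fold change was 0.07 against -0.01 over all genes, and 62 of 80 were above 0. This median was 0.02 without NT + Sham library 4, in which most members were lowest, 0.12 without NT + Sham library 3, in which most were highest, and 0.13 with library size alone. The 2 called were Rplp0 and Rps12, and 5 members had an unadjusted P under 0.05. DESeq2, which called 22.1% of the genes it tested, also called 2 members.

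Rplp0 anchors the stalk to which Rplp1 and Rplp2 attach, and it is widely used as a reference gene in RT-PCR. It stood at 257, 314 and 324 CPM (lowest, median and highest) in NT + Sham and at 320, 365 and 402 CPM in NT + Stroke. All NT + Stroke libraries but 1 were above every NT + Sham library. The log2 fold change was 0.28 ± 0.07 (SE, adjusted P = 0.00637). It stayed past the threshold in each of the 12 fits without 1 library. The adjusted P ranged from 7.42e-06 to 0.0304 over all alternatives, among them the covariate fit described below.

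Rps12, a protein of the small subunit head, stood at 72.2, 104 and 118 CPM in NT + Sham and at 108, 124 and 136 CPM in NT + Stroke. All 6 NT + Stroke libraries were above the NT + Sham median, and 4 were above its highest library. The log2 fold change was 0.31 ± 0.10 (adjusted P = 0.0369). This call was less secure, with adjusted P of 0.0622 to 0.0767 without NT + Sham library 5 or 6 or NT + Stroke library 1, 2, 3 or 4. Over all alternatives, the covariate fit included, the adjusted P was 2.07e-05 to 0.175. There are 3 small nucleolar RNA genes inside Rps12. On the same strand 13.7% of its exon bases are shared, and the partner listed is a small nucleolar RNA gene, Snora33.

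The other stalk proteins and the small-subunit proteins of known side roles did not pass. Rplp2 differed by 0.14 ± 0.11 (adjusted P = 0.389), Rpsa by 0.10 ± 0.08 (adjusted P = 0.400), Rps3 by 0.07 ± 0.09 (adjusted P = 0.6004) and Rps6 by 0.04 ± 0.07 (adjusted P = 0.719), all on the log2 scale. In each the groups overlapped. Rps6 stood at 287, 334 and 382 CPM in NT + Sham and at 313, 342 and 371 CPM in NT + Stroke.

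The paralogs of Rpl22 and Rps27 were followed beside their parents, and none of the 4 genes passed the test. Rpl22, whose protein is known to hold down the mRNA of its paralog, was at 122, 135 and 154 CPM in NT + Sham and 138, 150 and 157 CPM in NT + Stroke, a log2 difference of 0.14 ± 0.06 (adjusted P = 0.105). Rpl22l1 was at 50.4, 60.1 and 75.4 CPM and 36.6, 53.4 and 59.4 CPM, a log2 difference of -0.23 ± 0.11 (adjusted P = 0.166). All 6 NT + Stroke libraries were above the NT + Sham median for Rpl22 and below it for Rpl22l1. Rps27 differed by 0.19 ± 0.19 (adjusted P = 0.503) and its p53-induced paralog Rps27l by 0.25 ± 0.11 (adjusted P = 0.111), with 4 of 6 NT + Stroke libraries above the highest NT + Sham library in Rps27l.

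The ratio of a paralog to its parent hardly depends on library scaling. The log2 ratio of Rpl22l1 to Rpl22 in CPM was -1.39, -1.15 and -1.02 (lowest, median and highest) in NT + Sham, -1.47, -1.35 and -1.13 in HT + Sham, -1.91, -1.52 and -1.37 in NT + Stroke, and -1.63, -1.48 and -1.04 in HT + Stroke. NT + Stroke lay below NT + Sham with a narrow overlap, and HT + Stroke overlapped both. For Rpl7l1 to Rpl7 the medians were -2.80, -2.82, -2.88 and -2.92 in the same order of groups, and for Rps27l to Rps27 they were -3.41, -3.40, -3.45 and -3.62, within the spread between libraries. Rpl39l had at most 9 counts in any library and Rpl3l at most 24, and neither ratio is read further. No test was made on these ratios.

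**Figure D4:**
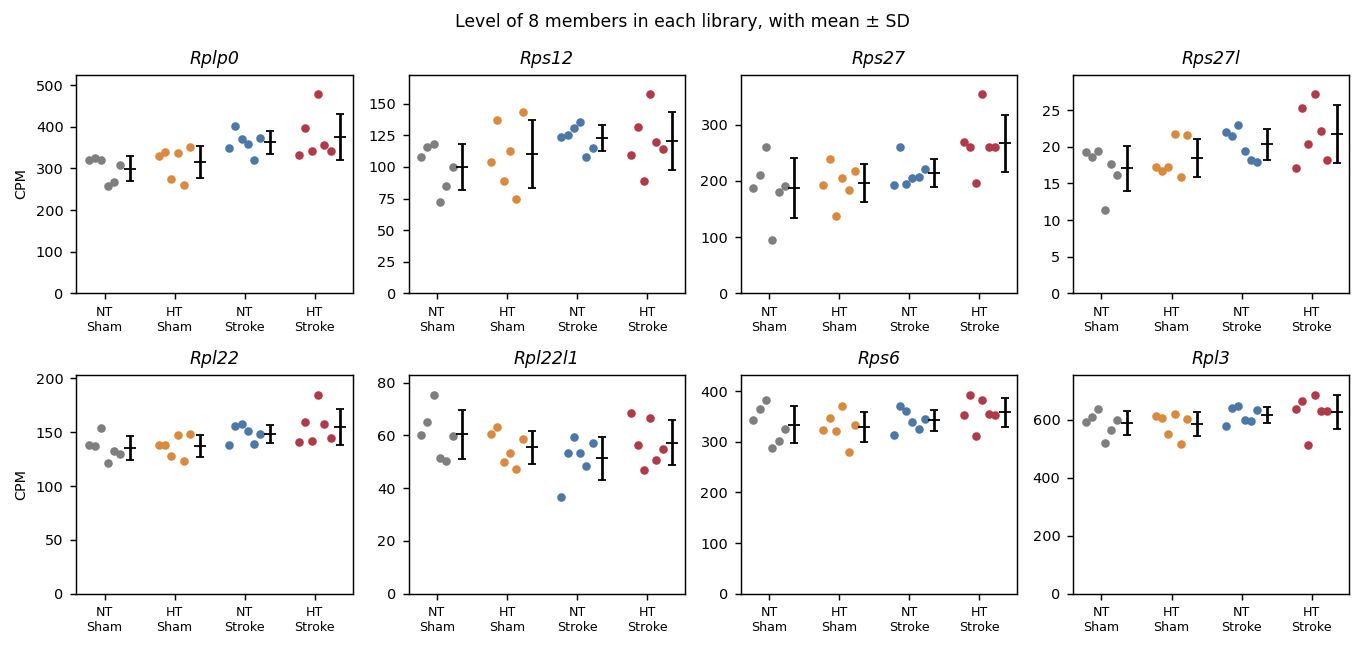
CPM of 8 members in each library by group (points), with the mean ± SD beside them. Rplp0 is higher in both stroke groups than in NT + Sham, with 1 NT + Stroke library of 320 CPM inside the NT + Sham range, while the other 7 members overlap more widely.

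Other genes changed more than the members in the same slices. In NT + Stroke vs NT + Sham, 17 of 18 markers of microglia and macrophages rose (summed CPM 550 to 635 in NT + Sham and 1059 to 2026 in NT + Stroke). Of 10 astrocyte markers 7 rose (3068 to 3391 and 3631 to 4365 CPM), and of 13 neuronal markers 8 fell and 1 rose (13904 to 14455 and 10712 to 12414 CPM). No marker of these 3 lists was at 0 in every library of a group. Of the other lists, 9 of 10 fibroblast markers, 4 of 10 of oligodendrocytes, 3 of 10 of endothelium and mural cells, 1 of 6 of blood and 2 of 4 of T and B lymphocytes tested rose. Of 10 cortical layer markers 7 fell, and of 7 olfactory bulb markers tested 4 rose (123 to 264 and 187 to 690 CPM) while 0 of 8 striatal markers were called (376 to 1643 and 482 to 2193 CPM). In a slice, more or fewer cells of a type and more or less RNA per cell cannot be told apart. The part of these cell types and of the cut of the slice in the members' differences was not tested.

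A fit with a covariate gave another count. The median deviation of the 163 short genes in each library was added to the model, a choice made after the spread between libraries had been seen, and no other covariate was tried. In NT + Stroke vs NT + Sham this called 48 of 80 members, all higher and with Rplp0 and Rps12 among them, where it called 33.2% of all genes and 16.8% as higher. The members' median was 0.14 on the log2 scale, and their median SE was 0.041 against 0.094 without the covariate. In the fit without it, 16 of the 163 short genes rose and 4 fell, where 25.9% of all genes were called and 14.4% as higher. Their mean score was -0.067 in NT + Stroke and -0.001 in NT + Sham, while the members' median without it was 0.07. With it, Rps9 differed by 0.34 ± 0.04 (adjusted P = 1.57e-06), Rplp0 by 0.33 ± 0.04 and Rps12 by 0.41 ± 0.06. These values depend on the covariate, and the count of 2 stands as the result of the comparison.

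Hypertension alone was followed by no called difference in the members. In HT + Sham vs NT + Sham, edgeR called 0 of 80 members and 0 had an unadjusted P under 0.05, and DESeq2 and limma on log2(FPKM + 1) also called 0. Of all 16581 genes tested edgeR called 0%, with 1332 at an unadjusted P under 0.05, and DESeq2 called 0.00499% of the genes it tested. The members' median was 0.01 against -0.001 over all genes, with 46 of 80 above 0, and 0 members separated the groups, where 0.344% of all genes did and 0.169% with HT + Sham higher. The median of the 7 olfactory bulb markers was 1.202 in this comparison, with 7 at an unadjusted P under 0.05 and 0 called. Their part in the members' values was not tested. The smallest P were those of Rpl21 at 0.38 ± 0.22, Rpl30 at 0.21 ± 0.13 and Rpl22l1 at -0.12 ± 0.10 on the log2 scale (adjusted P = 0.736, 0.754 and 0.843). Rpl21 was at 48.9, 86.9 and 123 CPM in NT + Sham and at 66.2, 110 and 142 CPM in HT + Sham.

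No single member passed the test between hypertensive and normotensive mice with stroke. In HT + Stroke vs NT + Stroke, edgeR called 0 of 80 members and DESeq2 and limma also called 0, with 0% of all 17008 genes called, and 1 member had an unadjusted P under 0.05. No member separated the groups, where 0.159% of all genes did and 0.047% with HT + Stroke higher. The members' median was 0.12 against -0.01 over all genes, and 77 of 80 were above 0. The median was 0.15 over the 163 other short genes (137 above 0), 0.13 over 64 ribosomal protein pseudogenes, 0.09 over 77 mitochondrial ribosomal protein genes (61 above 0) and -0.86 over the 7 olfactory bulb markers (0 above 0). The size of the members' shift depended on single libraries. The median was 0.04 without HT + Stroke library 4, in which 73 of 78 members were highest, and 0.19 without HT + Stroke library 3, in which 71 were lowest and without which 34 of 81 members then tested had an unadjusted P under 0.05 and 0 passed the threshold. With the short-gene covariate it was -0.02, and 32 of 80 were above 0.

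Rps27, a zinc-finger protein of the small subunit, had the smallest P in that comparison, at 193, 206 and 260 CPM in NT + Stroke and 197, 261 and 354 CPM in HT + Stroke. In 5 of 6 HT + Stroke libraries it was above the NT + Stroke median. The log2 difference was 0.32 ± 0.11 (adjusted P = 0.654, and 0.0972 to 0.983 over the alternatives). Rpl35a at 0.24 ± 0.11 and Rps2 at 0.19 ± 0.09 followed, both with an adjusted P of 0.654.

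The 2 stroke groups were also set against sham mice, with control samples shared between comparisons. In HT + Stroke vs NT + Sham, edgeR called 1 of 80 members, Rplp0, where it called 14.7% of all 16749 genes and 8.38% as higher and 6.37% as lower. The members' median was 0.18 against 0.01 over all genes, with 77 of 80 above 0 and 12 with an unadjusted P under 0.05. Without HT + Stroke library 4 the median was 0.10 and 2 members had an unadjusted P under 0.05, and without HT + Stroke library 3 they were 0.25 and 55. Rplp0 stood at 333, 349 and 478 CPM in HT + Stroke, above all NT + Sham libraries (257 to 324 CPM), and it was the 1 member whose groups did not overlap, where 5.95% of all genes did so and 2.35% with HT + Stroke higher. Its log2 fold change was 0.33 ± 0.09 (adjusted P = 0.0297). It was not called without NT + Sham library 4 (adjusted P = 0.0675) or 5 (0.0704), or without HT + Stroke library 2 (0.0698) or 4 (0.0633). Over all alternatives the adjusted P was 0.00716 to 0.0704, the lowest being that of the covariate fit.

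Rps27 differed by 0.51 ± 0.20 (adjusted P = 0.0981), Rps27l by 0.36 ± 0.14 (adjusted P = 0.1003), Rpl22 by 0.20 ± 0.08 (adjusted P = 0.0857), Rplp2 by 0.29 ± 0.14 (adjusted P = 0.176) and Rps12 by 0.28 ± 0.14 (adjusted P = 0.196) in HT + Stroke vs NT + Sham. Rps27 was at 95.6, 189 and 261 CPM in NT + Sham, and its lowest value there was in library 4. All 6 HT + Stroke libraries were above the NT + Sham median for Rps27 and for Rpl22. With the short-gene covariate 28 of 80 members were called, all higher and with Rplp0 among them, where 22.2% of all genes were called and 11.9% as higher.

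In HT + Stroke vs HT + Sham, edgeR called 0 of 80 members and 6 had an unadjusted P under 0.05. DESeq2 called 1, Rps27, among 4.63% of the genes it tested, and limma on log2(FPKM + 1) called 0. With edgeR 0.645% of all 16741 genes were called and 0.544% as higher. No member separated the groups, where 1.15% of all genes did and 0.579% with HT + Stroke higher. The median was 0.18 against 0.0007 over all genes and 78 of 80 members were above 0, falling to a median of 0.09 without HT + Stroke library 4. Rps27 was at 138, 199 and 239 CPM in HT + Sham, and 5 of 6 HT + Stroke libraries were above that highest value, with a log2 difference of 0.45 ± 0.13 (adjusted P = 0.107). DESeq2 gave it an adjusted P of 0.0389 and the covariate fit, in which Rps27 was the 1 member called among 1.11% of all genes, 0.0305, within a range of 0.0305 to 0.233 over the alternatives. Rplp0 differed by 0.26 ± 0.10 (adjusted P = 0.223), Rpl10, which joins the large subunit late in its assembly, by 0.25 ± 0.10 (adjusted P = 0.233), Rps27l by 0.25 ± 0.12 (adjusted P = 0.313), Rplp2 by 0.23 ± 0.14 (adjusted P = 0.403), Rpl22 by 0.18 ± 0.08 (adjusted P = 0.261) and Rps12 by 0.14 ± 0.16 (adjusted P = 0.722).

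Whether the effect of stroke differed between HT and NT mice was tested with an interaction term over all 24 libraries. No member passed: edgeR called 0 of 81, 0 had an unadjusted P under 0.05, and DESeq2 and limma called 0. Of all 17608 genes edgeR called 0%, with 1836 at an unadjusted P under 0.05, and DESeq2 called 0.0852% of those it tested. The members' median interaction was 0.11 against 0.003 over all genes, with 72 of 81 above 0. It was 0.04 without HT + Stroke library 4 and -0.02 with the short-gene covariate. The smallest P were those of Rpl22l1 at 0.28 ± 0.16 (adjusted P = 0.546), Rpl31 at 0.27 ± 0.17 (adjusted P = 0.580) and Rps15 at 0.29 ± 0.19 (adjusted P = 0.602). The median interaction was -1.98 in the 7 olfactory bulb markers, 0.71 in the 8 striatal markers and 0.14 in the 163 short genes. Of these lists, 7 olfactory bulb markers, 0 striatal markers and 4 short genes had an unadjusted P under 0.05. The part of these lists in the members' values was not tested.

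**Figure D5:**
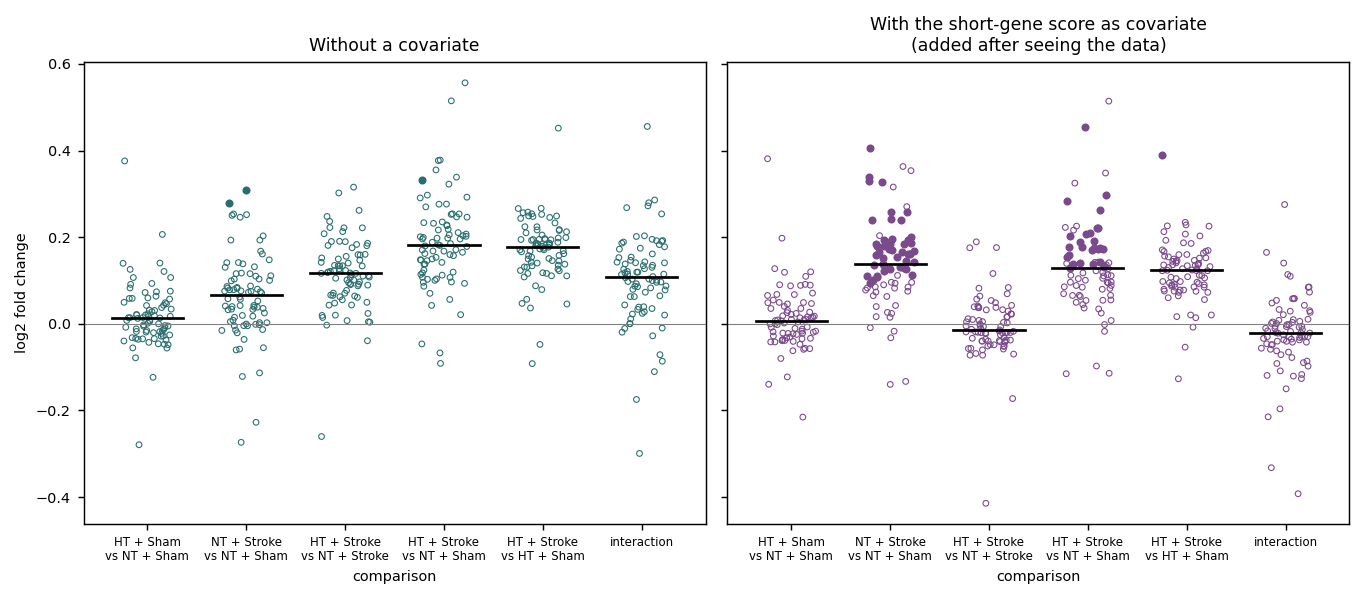
Log2 fold change of each member (points, filled where the adjusted P was under 0.05) in the 5 comparisons and the interaction, with medians as bars; left, fits without a covariate, right, with the short-gene score added after seeing the data. Rpl3l, tested only in the interaction, is left out. Left, 2 members are filled in NT + Stroke vs NT + Sham and 1 in HT + Stroke vs NT + Sham; right, 48 and 28 are.

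The rest of the translation machinery showed no common direction after stroke. In NT + Stroke vs NT + Sham, Rack1, a scaffold on the small subunit, rose by 0.20 ± 0.06 (adjusted P = 0.0320), with CPM of 200 to 249 in NT + Sham and 231 to 286 in NT + Stroke. Of 21 genes listed as having a TOP tract but coding for other proteins 4 rose, among them Vim at 1.97 ± 0.09, the poly(A)-binding protein Pabpc1 at 0.25 ± 0.06 and Tpt1 at 0.25 ± 0.07 (adjusted P = 9.52e-10, 0.00531 and 0.0131). Vim codes for vimentin, an intermediate filament of reactive astrocytes and not a translation factor, and the median of the list was 0.03. Of 34 other initiation and elongation factors 6 fell and 0 rose, with a median of -0.08. Eif1a and Eif4a2, which act in start-site selection and mRNA unwinding, fell by 0.25 and 0.20 on the log2 scale (adjusted P = 0.00464 and 0.0161).

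Genes that make or regulate ribosomes were not higher. Of 49 genes of ribosome biogenesis and RNA polymerase I 1 fell in NT + Stroke vs NT + Sham, Wdr12 at -0.30 ± 0.07 (adjusted P = 0.00213), and the median was -0.06. Of 21 genes of the mTOR pathway and LARP1 3 fell, Rheb at -0.20 ± 0.05, Larp1 at -0.17 ± 0.05 and Rraga at -0.16 ± 0.06 (adjusted P = 0.00785, 0.0237 and 0.0376). Rheb and Rraga code for GTPases that activate mTOR. Of 77 mitochondrial ribosomal protein genes 4 fell and 0 rose, with a median of -0.10, and of 62 ribosomal protein pseudogenes tested 0 were called, with a median of -0.02. Of 26 mitochondrial genome transcripts tested 4 fell, and their share of all counts was 6.34% to 7.15% in NT + Sham and 6.10% to 6.98% in NT + Stroke.

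The same lists were followed in the other comparisons. Of all genes tested, 8.38% were called higher and 6.37% lower in HT + Stroke vs NT + Sham. In HT + Stroke vs NT + Sham, 2 TOP-listed genes rose (Vim, and Eef2, which moves the ribosome along the mRNA, at 0.21 ± 0.06, adjusted P = 0.0320) and 1 fell, 6 other factors fell, 2 biogenesis genes fell, 1 mTOR gene fell, 2 mitochondrial transcripts fell, and 0 of 77 mitochondrial ribosomal protein genes were called. Rps27rt, a near-identical copy of Rps27, fell by 0.79 ± 0.22 on the log2 scale (adjusted P = 0.0333), from 38.9, 57.3 and 94.7 CPM in NT + Sham to 23.0, 35.3 and 49.2 CPM in HT + Stroke, and reads shared with Rps27 make both uncertain. In the remaining comparisons and the interaction term edgeR called 0 genes of these lists, with 0 to 5 per list at an unadjusted P under 0.05. Among cell type markers, 15 of 18 microglial and macrophage genes rose in HT + Stroke vs NT + Sham, as did 7 of 10 of oligodendrocytes, 6 of 10 of fibroblasts and 3 of 10 of astrocytes. In that comparison 4 of 13 neuronal and 4 of 10 cortical layer markers fell, 1 neuronal marker rose, and the 8 striatal markers had a median of 0.96 with 7 at an unadjusted P under 0.05 and 0 called. The part of these in the members' values was not tested. Of the microglial and macrophage genes 0 were called in HT + Stroke vs HT + Sham, where their median was 1.21. In the latter, where 0.544% of all genes were called higher, 5 of 10 oligodendrocyte markers and 1 of 10 cortical layer markers rose. The 8 striatal markers had a median of 1.35 there, with 8 at an unadjusted P under 0.05 and 0 called.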

How the data were processed

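The authors sequenced poly(A) libraries and deposited whole-number counts per gene, not normalized, with FPKM made by the authors from counts, gene length and library size. The submitters' notes name featureCounts 1.5.0-p3 and DESeq2 1.20.0, and the aligner and strand setting are not given in the sources used here. Gene positions match GENCODE M21 (GRCm38) for 80 of 82 members. The authors' own fold changes, P values and 48 columns of normalized counts were not used. The 4 tables were joined by gene identifier (33981 genes), and 48 library columns present in more than 1 table were compared, of which 0 differed.

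Counts were tested in R 4.3.3 with edgeR 4.0.16 (filterByExpr, TMM, two-sided robust quasi-likelihood test) on the libraries of the groups compared, or on all 24 for the interaction, with Benjamini-Hochberg adjustment over all genes and a threshold of 0.05. The script was tested on simulated data. CPM used TMM-scaled sizes. Deviations are log2(CPM + 1) minus the gene's mean, and paralog ratios used CPM + 0.1. FPKM was described and tested with limma 3.58.1 only as an alternative. Members named were stalk and selected small-subunit proteins, paralogs with their parents, called members or the 3 smallest P, and the 5 highest and 5 lowest FPKM. Marker lists of endothelium, oligodendrocytes, fibroblasts, blood and lymphocytes were also followed. Members, lists and tests were chosen with earlier results of these data known. Alternatives were DESeq2 1.42.0, other scalings and filters, limma on log2(FPKM + 1) and log2(FPKM + 0.1), all 4 groups in one fit, each library left out, and the short-gene covariate. A withheld item, and the count of the list that held it, are not reported here.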

Additional observations from a re-analysis of the deposited data

Results flagged for a closer look

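The summed level and 25 named members were examined for a library far from the other 5 of its group, in 104 sets of 6 values. A library counted where its gap to the nearest exceeded Dixon's 95% critical share of the group's range, which chance gives in about 1 of 20 groups. In all 5 did, about as many as that rate gives over 104 sets. Rpl21 in NT + Stroke library 2 was 160 CPM, where the others were 78.1 to 99.98 CPM. In the same library Rpl7l1 was 51.7 CPM, where the others were 42.5 to 45.4, and Rpl39l was 0.37 CPM, where the others were 0 to 0.079. Rpl39l was also high in HT + Stroke library 5, at 0.30 CPM against 0 to 0.090, values of a few reads each. Rpl3, a protein near the peptidyl transferase centre, was 513 CPM in HT + Stroke library 3, where the others were 630 to 686 CPM. That library was also the lowest for 71 of 78 members.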

How the results depend on the processing

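No paired analysis was possible because the labels give the groups no shared replicate numbers that tie mice together. The 2 members called in NT + Stroke vs NT + Sham became 10 with library size alone (23.8% of all genes called, 17.7% as higher), 4 with limma on log2(FPKM + 1) (23.3%), 4 on log2(FPKM + 0.1) (23.2%), 1 with every gene with a count (13.1%), 1 with all 4 groups in one fit (21.4%) and 48 with the short-gene covariate (33.2%), and 1 to 6 with 1 library left out (6 without NT + Sham library 3 and 1 without NT + Sham library 5 or NT + Stroke library 2, 3 or 4). The 1 called in HT + Stroke vs NT + Sham became 3 with DESeq2 (16.2% of all genes), 3 with all 4 groups (18.8%), 28 with the covariate (22.2%) and 0 to 3 with 1 library left out (0 without NT + Sham library 4 or 5 or HT + Stroke library 2 or 4, 2 without NT + Sham library 1, 3 without NT + Sham library 3 or HT + Stroke library 3). The 0 called in HT + Stroke vs HT + Sham became 1 with DESeq2 (4.63%) and 1 with the covariate (1.11%). The cause was not tested. The other 120 of 143 alternative counts stayed within 1.5 times. Most of these were 0 in both fits: 22 in HT + Sham vs NT + Sham, 22 in HT + Stroke vs NT + Stroke, 33 in the interaction and 20 in HT + Stroke vs HT + Sham. In the first 3, edgeR called 0% of all genes, so these counts are no measure of stability. Of the 22 alternatives in each comparison with a called member, 11 moved in NT + Stroke vs NT + Sham and 10 in HT + Stroke vs NT + Sham. The SD between libraries (0.19) exceeded each member median, so it is no measure of their stability. With 1 library left out the median ran from 0.02 to 0.12 in NT + Stroke vs NT + Sham, 0.04 to 0.19 in HT + Stroke vs NT + Stroke, 0.10 to 0.25 in HT + Stroke vs NT + Sham, 0.09 to 0.24 in HT + Stroke vs HT + Sham and 0.04 to 0.18 in the interaction. Medians changed sign with the covariate in HT + Stroke vs NT + Stroke (-0.02) and the interaction (-0.02), and without NT + Sham library 4 in HT + Sham vs NT + Sham (-0.05). Of 737 alternative values of 32 named member results, 0 turned direction, 12 lost the call and 22 gained it. Library size alone put the median of all genes at 0.06 in NT + Stroke vs NT + Sham. Depth limits Rpl39l and Rpl3l, with at most 9 and 24 counts in a library.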
